A study of Mus musculus with 4 samples.

Results

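The collagen chains on the array were taken as every probe whose deposited gene symbol begins with Col, a number, a and a further number. That rule matched 90 probes, of which 4 belong to Col4a3bp, a ceramide transfer protein named for its binding to a collagen chain, and not a collagen. The remaining 86 probes, printed as 104 spots, stand for 43 collagen genes, of 21260 gene symbols and 41174 probes in all. Of these 86, 84 entered the fit together with 39080 probes overall. A probe entered when either dye gave a signal well above background on 3 or more of the arrays. The exceptions were Col11a1 probe A_52_P671029, above background on 1 array in each channel, and Col25a1 probe A_52_P669086, above background on none.

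Cy5 carried liver RNA of male C57Bl/6 mice with the genotype Wrn mutant, aged 3 months, whose drinking water had held 0.4% vitamin C from weaning onward. Cy3 carried liver RNA of untreated male C57Bl/6 wild-type mice of the same age. Each of 4 arrays paired 1 mutant with 1 wild-type animal, and the labels call the 4 independent biological replicates. Dye-swapped arrays, untreated mutants and treated wild-type mice were not analysed here. The genotype, the vitamin C and the dye therefore cannot be told apart in any ratio. The sources used here do not name the Wrn allele. The arrays shared 1 slide and 1 scan time. Array 1 stood apart in signal: 82.5% of its probes cleared background in the mutant channel and 84.2% in the wild-type channel, against 94.4% to 96.1% in either channel of the other arrays. Wrn encodes a RecQ helicase. Its probe A_51_P325247 had a log2 ratio of 0.46 ± 0.11 (SD, n = 4; limma adjusted p = 0.0140), A_52_P383506 was at 0.00 ± 0.02 and A_52_P498492 at -0.10 ± 0.08. The labels do not say which part of the transcript the mutation alters, so these probes do not check the genotype. Alb, which encodes albumin and marks liver tissue, was well above background in both channels on all 4 arrays.

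Collagens are proteins of the extracellular matrix in which 3 chains wind into a triple helix. The helix requires glycine in each residue triplet, which gives every chain its repeated Gly-X-Y pattern. Prolyl and lysyl hydroxylases modify the chains in the endoplasmic reticulum and use vitamin C as a cofactor. Types I and III form the main fibrils of liver, type V is built into those fibrils, type IV forms the basement membrane network and type VI makes beaded filaments. In liver, fibrillar collagens come mainly from stellate cells and portal fibroblasts. Whole liver was measured, so fewer cells of a type and less RNA per cell cannot be told apart.

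The probes are the 60-base oligonucleotides on which every value rests, and they are shown 5′ to 3′ for some genes whose probes disagreed and for probes that read the collagen repeat itself. The first set reads the Gly-X-Y coding repeat without a break over the whole probe. Capitals mark glycine codons, 1 in each codon triplet, and the chromosome after each name is that of the gene in RefSeq GRCm38.p6. These 3 of the 86 probes carry 6 glycine codons in Col11a2, 6 in Col5a1 and 7 in Col5a3, and none of the 3 was called.
Col11a2 A_52_P563285, chromosome 17: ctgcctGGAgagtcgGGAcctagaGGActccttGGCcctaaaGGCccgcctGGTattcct
Col5a1 A_52_P237371, chromosome 2: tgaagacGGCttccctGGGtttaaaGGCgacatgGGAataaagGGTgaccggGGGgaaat
Col5a3 A_52_P503796, chromosome 9: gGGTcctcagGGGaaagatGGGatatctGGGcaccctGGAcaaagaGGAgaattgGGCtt

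The second set holds probes that were called in the mutant comparison, beside uncalled probes of the same gene. The first 30 bases of each are given, all in lower case because no motif is marked. The lower probes are A_51_P377094 and A_52_P525107 of Col1a1, A_51_P515605 of Col3a1, A_51_P414637 of Col5a1 and A_52_P479262 of Col6a3, and the higher probe is A_51_P241995 of Col5a3.
Col1a1 A_51_P377094, chromosome 11: tgcaacctggacgccatcaaggtctactgc
Col1a1 A_52_P525107, chromosome 11: ttttcctttgcattcacctttcaaacttag
Col1a1 A_52_P658611, chromosome 11: tggaaacccgaggtatgcttgatctgtatc
Col3a1 A_51_P515605, chromosome 1: ataagccaaactctctgaaaccccagcaaa
Col3a1 A_52_P684242, chromosome 1: gccagaaccatgtcaaatatgtgtctgtga
Col3a1 A_52_P8643, chromosome 1: tggaatagctctcaggaagtacaacaatat
Col5a1 A_51_P414637, chromosome 2: cctgaccttcaaaagatgttctgaggtggt
Col5a3 A_51_P241995, chromosome 9: tctgtggtctatttaatttgcttccttctg
Col6a3 A_52_P479262, chromosome 1: atggtcccagttttctggattagacttcga
Col6a3 A_52_P573586, chromosome 1: gagggacagtttccaggaagtgctccgttt
Col6a3 A_52_P675592, chromosome 1: cgttgggaaaaacaatttcccttatgtgcg

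At least 1 probe was lower in vitamin C-treated Wrn mutants than in wild type for 9 collagen genes: Col1a1, Col1a2, Col3a1, Col5a1, Col6a1, Col6a3, Col8a1, Col12a1 and Col16a1. They hold the chains of the type I fibril, the type III chain and chains of types V, VI, VIII, XII and XVI. A probe was higher for Col2a1, Col4a4 and Col5a3, and no probe was called for the other 31 genes. The array-wide share of genes with a called probe was not computed, so these counts of genes have no background. Shares per probe are given below. All values below are log2 ratios of mutant over wild type unless a level is named. The test was limma's moderated test of the mean of 4 arrays against 0, with Benjamini-Hochberg adjustment over all 39080 probes and a threshold of 0.05. By that test 10 of 84 collagen probes (11.9%) were lower, against 6.27% of all tested probes, and 3 (3.57%) were higher, against 5.97%. In either direction 12.2% of all tested probes were called. The lower probes differed by 1.18-fold to 1.44-fold and the higher ones by 1.15-fold to 1.29-fold, and no collagen probe reached 1.5-fold. No call passed the threshold without array 2, where 0 collagen probes were lower, 0 were higher and 12 probes of the whole array were called. Each called collagen probe had the same sign on all 4 arrays, so leaving out array 2 could not change the sign of its mean. Without that array Col1a1 probe A_51_P377094 was at -0.46, Col1a2 A_51_P182303 at -0.35 and Col6a3 A_52_P479262 at -0.53. Without array 1 there were 4 lower and 0 higher collagen probes, without array 3 there were 9 and 1, and without array 4 there were 3 and 0. With the pairing of animals on an array left out of the fit, 0 collagen probes were called in either direction. In the authors' deposited table, which tests each spot, 17 of 104 collagen spots were lower, against 5.27% of all spots, and 1 was higher, against 4.6% of all spots, at an adjusted p under 0.05. Of the 17 lower spots 7 were repeats of Col1a1 probe A_52_P525107.

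The collagen median lay close to that of all probes. The median log2 ratio of the 84 probes was 0.02, against 0.00 over all tested probes. By array the collagen median was -0.0022, 0.0099, 0.033 and 0.026. The ratio was negative on all 4 arrays for 15 of the 84 probes (17.9%, against 18.8% of all tested probes) and positive on all 4 for 19 (22.6%, against 21.6%).

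**Figure D1:**
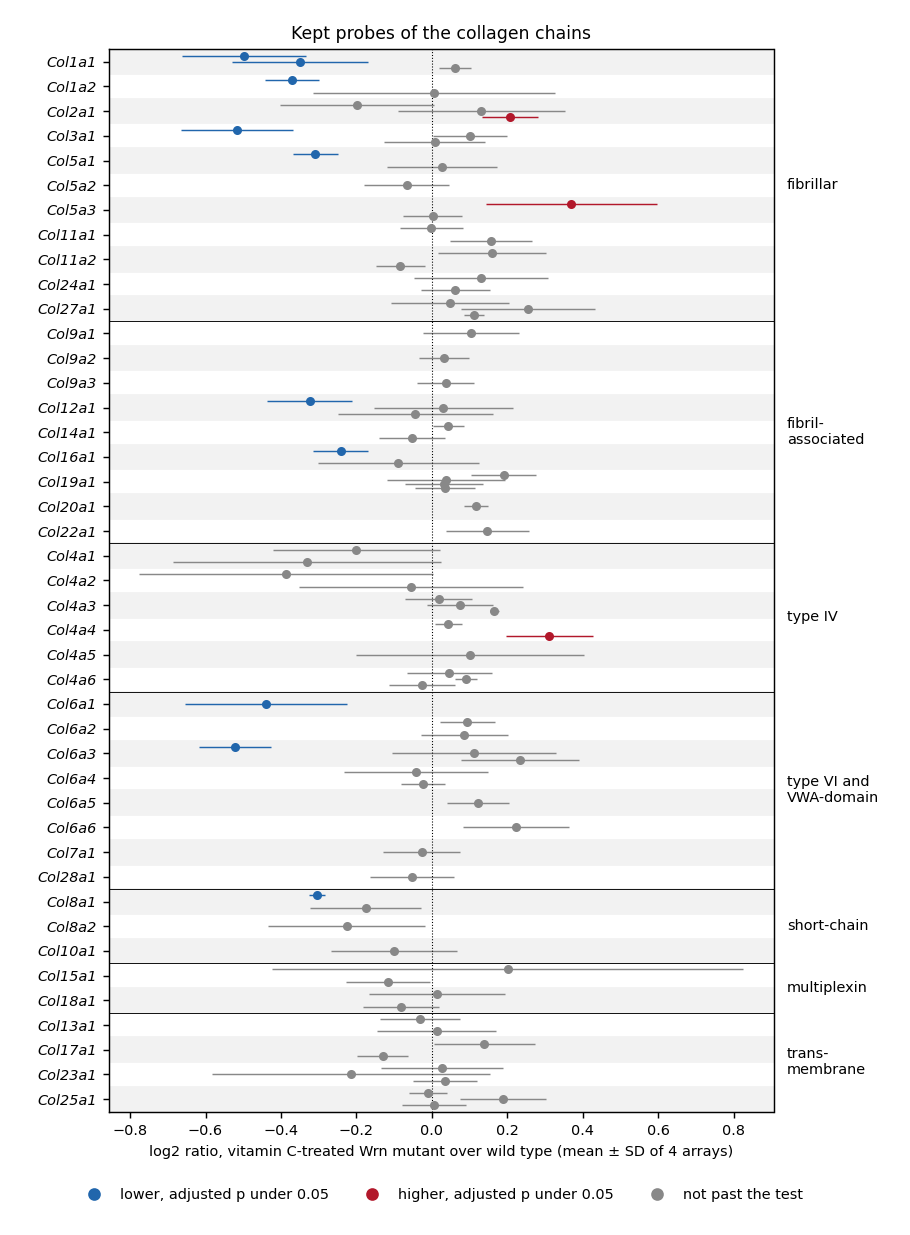
Mean log2 ratio of mutant over wild type (horizontal axis) for each of the 84 tested collagen probes, by gene and class, with bars of 1 SD over 4 arrays. Blue points are the 10 lower probes, red points the 3 higher ones and grey points those not called, and in 8 of the 9 genes with a blue point at least 1 grey point of the same gene is drawn beside it.

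Type I collagen, the main fibril of liver scar and portal tracts, is built from the Col1a1 and Col1a2 chains. For Col1a1, probe A_51_P377094 had log2 ratios of -0.37, -0.62, -0.34 and -0.66 on arrays 1 to 4, a mean of -0.50 ± 0.16 (SD, n = 4; adjusted p = 0.0171). The second probe, A_52_P525107, printed as 10 spots, had -0.34, -0.55, -0.11 and -0.39, a mean of -0.35 ± 0.18 (adjusted p = 0.0350). Both probes were below 0 on every array, while the channel levels of mutant and wild-type animals overlapped on each. The third probe, A_52_P658611, had 0.06, 0.08, 0.11 and 0.01 and a mean of 0.06 ± 0.04, which was not called. It differed from both others within arrays, by -0.56 for A_51_P377094 minus A_52_P658611 (adjusted p = 0.0121 over 19175 probe pairs) and by -0.41 for A_52_P525107 minus A_52_P658611 (adjusted p = 0.0215).

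Col1a2 probe A_51_P182303 had log2 ratios of -0.39, -0.42, -0.26 and -0.41, a mean of -0.37 ± 0.07 (SD, n = 4; adjusted p = 0.0165). Its log2 levels were 12.2, 12.1, 12.0 and 12.0 in mutants, against 12.6, 12.5, 12.3 and 12.4 in wild type, and no mutant reached the lowest wild-type animal. Such a separation, with every mutant level below every wild-type level, was seen for 4 of the 84 collagen probes (4.76%), against 4.26% of all tested probes. The other 3 were probes of Col3a1, Col6a1 and Col16a1. Col1a2 probe A_52_P424253 had 0.10, 0.27, 0.12 and -0.46, a mean of 0.01 ± 0.32. That probe was dim, well above background on 3 arrays in each channel. The difference of the Col1a2 probes, -0.38, did not pass the test (adjusted p = 0.0680).

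Col3a1 encodes the single chain of type III collagen, which forms the reticular fibres of the sinusoids. Probe A_51_P515605 had log2 ratios of -0.58, -0.70, -0.39 and -0.40, a mean of -0.52 ± 0.15 (SD, n = 4; adjusted p = 0.0150), or 1.43-fold lower in mutants. Its log2 levels were 12.55, 12.19, 12.23 and 12.32 in mutants, against 13.13, 12.88, 12.61 and 12.73 in wild type, and the groups did not overlap. A_52_P684242 had 0.01, 0.17, 0.02 and 0.20, and A_52_P8643 had -0.18, 0.13, 0.02 and 0.06. Neither of these probes was called, and A_51_P515605 differed from each, by -0.62 (adjusted p = 0.0124) and by -0.52 (adjusted p = 0.0171).

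Type V collagen sets the diameter of type I fibrils, and 1 probe each of Col5a1 and Col5a3 was called, in opposite directions. With the probes of a gene averaged, neither gene was called. Col5a1 was then at -0.14 (limma adjusted p = 0.0989) and Col5a3 at 0.19 (limma adjusted p = 0.106). Col5a1 probe A_51_P414637 had log2 ratios of -0.36, -0.36, -0.24 and -0.28, a mean of -0.31 ± 0.06 (SD, n = 4; adjusted p = 0.0203). The Gly-X-Y probe of Col5a1 had 0.04, 0.18, 0.06 and -0.17, a mean of 0.03 ± 0.15, and the pair differed by -0.34 (adjusted p = 0.0359). The array 4 value of the repeat probe was the only negative one of its 4. Col5a2 had 1 probe, at -0.21, -0.11, 0.02 and 0.03, a mean of -0.07 ± 0.11 that was not called. Col5a3 probe A_51_P241995 was higher in mutants, at 0.57, 0.12, 0.55 and 0.23, a mean of 0.37 ± 0.23 (adjusted p = 0.0420), with arrays 1 and 3 far above arrays 2 and 4. The Gly-X-Y probe of Col5a3 lay near 0 throughout, at 0.01, -0.02, 0.11 and -0.08, and the pair differed by 0.37 (adjusted p = 0.0294). In both genes the called probe was the one outside the repeat.

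The other fibrillar gene with a called probe was Col2a1, the chain of cartilage type II collagen. Probe A_52_P564148 had log2 ratios of 0.23, 0.28, 0.11 and 0.21, a mean of 0.21 ± 0.07 (SD, n = 4; adjusted p = 0.0482). A_51_P317141, printed as 10 spots, had -0.09, -0.05, -0.15 and -0.50, and A_52_P216436 had 0.03, -0.02, 0.06 and 0.46. Neither was called, the pair A_51_P317141 minus A_52_P564148 differed by -0.40 (adjusted p = 0.0269), and array 4 gave the extreme value of both uncalled probes, with opposite signs. The called Col2a1 probe was designed to a cDNA clone and not to a RefSeq transcript. Over the 25 tested probes of the 11 fibrillar genes, 5 were lower, 2 were higher, and the median log2 ratio was 0.03.

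**Figure D2:**
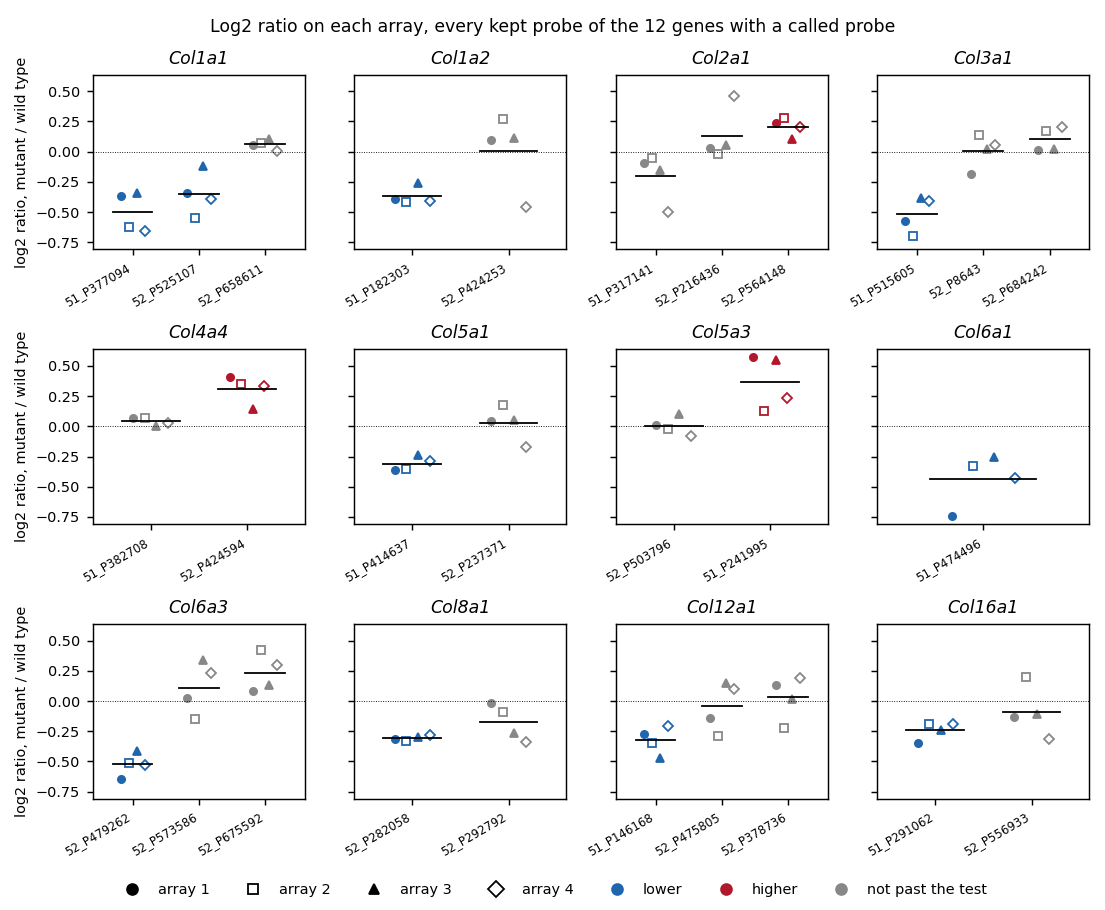
Log2 ratio of mutant over wild type on each of the 4 arrays for every tested probe of the 12 collagen genes with a called probe. Lower probes are blue, higher probes red and uncalled probes grey. In Col1a1, Col3a1, Col5a1, Col6a3 and Col12a1 the blue values lie below the grey ones of the same array on every array.

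Type VI collagen is assembled from Col6a1, Col6a2 and a longer chain such as Col6a3. Col6a3 probe A_52_P479262 had log2 ratios of -0.64, -0.51, -0.41 and -0.53, a mean of -0.52 ± 0.10 (SD, n = 4; adjusted p = 0.0119), or 1.44-fold lower in mutants. A_52_P573586 had 0.03, -0.15, 0.34 and 0.23, and A_52_P675592 had 0.08, 0.42, 0.14 and 0.30. The last probe was positive on all 4 arrays yet not called (0.23 ± 0.16, adjusted p = 0.0689). The lower probe differed from A_52_P573586 by -0.63 (adjusted p = 0.0123) and from A_52_P675592 by -0.76 (adjusted p = 0.0109). A_52_P573586, at 0.11 ± 0.22, was not called either (adjusted p = 0.405), so only the lower Col6a3 probe had a called direction.

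Col6a1 was read by a single probe, A_51_P474496, with log2 ratios of -0.74, -0.33, -0.26 and -0.43, a mean of -0.44 ± 0.22 (SD, n = 4; adjusted p = 0.0282). Its log2 levels were 8.95, 8.72, 8.79 and 8.83 in mutants, against 9.64, 9.02, 9.02 and 9.23 in wild type, so the groups did not overlap. Array 1 gave the largest difference. For Col6a2, which is coded on chromosome 10 like Col6a1, A_51_P279639 had 0.08, 0.20, 0.06 and 0.03 and A_52_P362757 had 0.15, 0.15, -0.09 and 0.13. Neither Col6a2 probe was called, and their means were 0.09 ± 0.07 and 0.09 ± 0.12.

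Among the chains that decorate fibrils, Col12a1 and Col16a1 had a lower probe. Col12a1 encodes a long fibril-associated chain. Its probe A_51_P146168 had log2 ratios of -0.27, -0.35, -0.47 and -0.21, a mean of -0.32 ± 0.11 (SD, n = 4; adjusted p = 0.0254). A_52_P378736 had 0.14, -0.23, 0.02 and 0.19 and A_52_P475805 had -0.14, -0.29, 0.15 and 0.10. Both changed sign between arrays. The difference of A_51_P146168 from A_52_P378736, -0.36, passed the test (adjusted p = 0.0278). That from A_52_P475805, -0.28, did not (adjusted p = 0.0937). Col16a1 probe A_51_P291062 had -0.34, -0.19, -0.24 and -0.19, a mean of -0.24 ± 0.07 (adjusted p = 0.0347). Its log2 levels were 9.87, 9.88, 9.92 and 10.03 in mutants, against 10.20, 10.06, 10.16 and 10.22 in wild type, with no overlap. Col16a1 probe A_52_P556933 had -0.13, 0.20, -0.11 and -0.32 and was not called, and the pair did not pass the test of its difference (-0.15, adjusted p = 0.266). Col14a1, which binds fibrils in normal liver, was near 0 on both probes: A_51_P141467 had -0.01, 0.08, 0.04 and 0.07, and A_51_P326529 had -0.06, -0.17, -0.0047 and 0.02.

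Col8a1, a chain of the short type VIII network made by vessel wall cells, gave the narrowest spread of the lower probes. A_52_P282058 had log2 ratios of -0.32, -0.33, -0.30 and -0.28, a mean of -0.30 ± 0.02 (SD, n = 4; adjusted p = 0.0187). A_52_P292792 also stayed below 0, at -0.02, -0.09, -0.26 and -0.34, but was not called (-0.18 ± 0.15, adjusted p = 0.123). The difference of the pair, -0.13, did not pass (adjusted p = 0.282). All 4 tested probes of the short-chain genes Col8a1, Col8a2 and Col10a1 had a negative mean, with a median of -0.20.

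**Figure D3:**
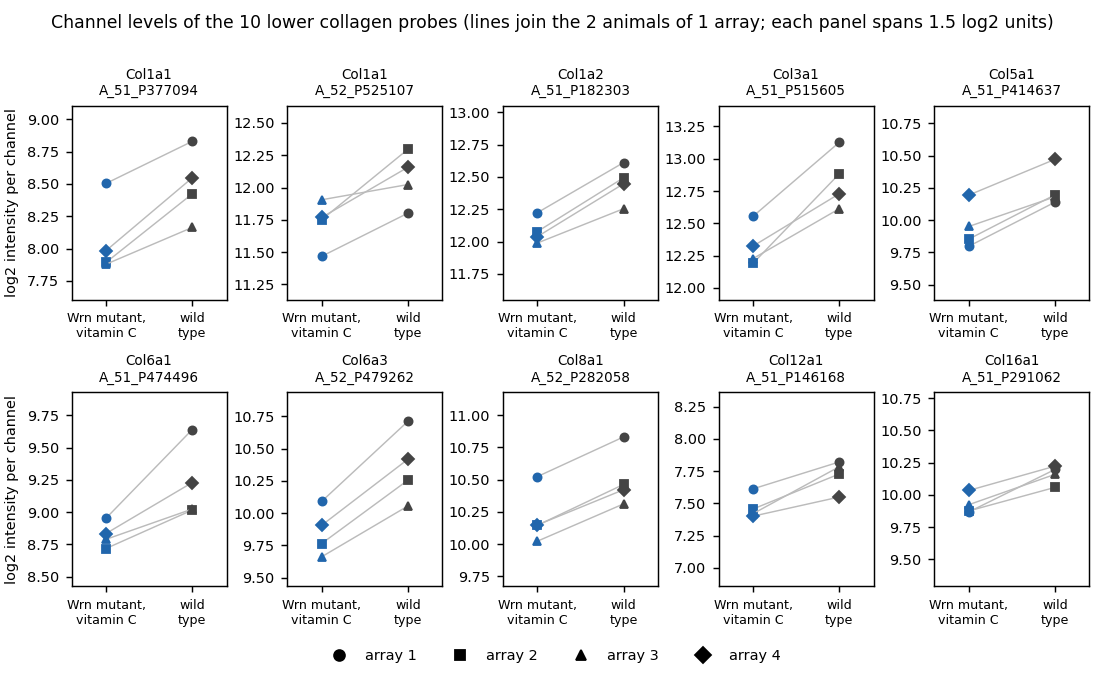
Log2 intensity per channel of the 10 lower collagen probes, mutants on the left and wild type on the right of each panel, with a line joining both animals of 1 array. Each line slopes up toward wild type, and the groups do not overlap for Col1a2 A_51_P182303, Col3a1 A_51_P515605, Col6a1 A_51_P474496 and Col16a1 A_51_P291062.

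Type IV collagen of basement membranes had no called probe of Col4a1 or Col4a2, and its ratios differed between arrays. Col4a1 and Col4a2 are transcribed away from a shared promoter and their products join in 1 trimer. Col4a1 probe A_51_P124254 had log2 ratios of -0.15, -0.43, 0.09 and -0.31, and A_52_P518827 had -0.26, -0.40, 0.10 and -0.76. Both were negative on arrays 1, 2 and 4 and positive on array 3. Col4a2 probe A_51_P491350 had -0.35, -0.66, 0.15 and -0.68, a mean of -0.39 ± 0.39 (SD, n = 4; adjusted p = 0.103). A_52_P496142 had 0.14, -0.29, 0.26 and -0.33, and the Col4a2 probes differed by -0.33 (adjusted p = 0.0330). Array 3 was positive on all 4 of these probes and none was called. Leaving out array 3, its only positive value, could only lower the mean of Col4a2 probe A_51_P491350, to -0.57. With a limma adjusted p of 0.0361 it is then 1 of the 9 lower probes counted without that array. That p follows from which array was left out and is no support for a lower Col4a2.

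Col4a4 belongs to the type IV trimer of kidney glomeruli. Its probe A_52_P424594 was higher in mutants, at 0.41, 0.35, 0.15 and 0.33, a mean of 0.31 ± 0.12 (SD, n = 4; adjusted p = 0.0280). A_51_P382708 had 0.07, 0.07, 0.00 and 0.03 and was not called. The pair differed by -0.27 for A_51_P382708 minus A_52_P424594 (adjusted p = 0.0338), and the higher probe, like that of Col2a1, was designed to a cDNA clone. Across the 13 tested probes of the 6 type IV genes 0 were lower, 1 was higher, and the median log2 ratio was 0.04.

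**Figure D4:**
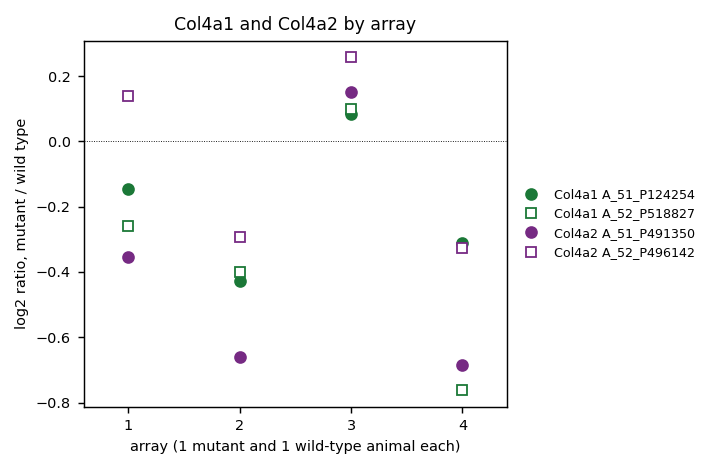
Log2 ratio of mutant over wild type on each array for the 4 probes of Col4a1 and Col4a2. All 4 probes are above 0 on array 3 and below 0 on arrays 2 and 4.

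The multiplexins Col15a1 and Col18a1, whose chains carry sugar side chains and release antiangiogenic fragments, had no called probe. Col15a1 probe A_51_P159792 had log2 ratios of 0.19, 0.45, 0.82 and -0.65 and A_52_P170882 had -0.07, -0.27, -0.0029 and -0.13. The first had the widest spread of any uncalled collagen probe, with an SD of 0.62. Col18a1, a chain made by hepatocytes, had 0.21, -0.10, 0.12 and -0.17 on A_51_P191700 and -0.08, -0.16, 0.06 and -0.15 on A_52_P261846. Under median centring in place of loess the Col18a1 probes were at 0.51 and 0.27, both called higher, so no direction is given for this gene. The 10 tested probes of the 4 transmembrane genes had no call and a median of 0.01.

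The genes described so far number 19, with 41 tested probes. The other 24 collagen genes had 43 tested probes, of which 0 passed the limma test and 12 (27.9%) had an unadjusted p under 0.05, against 32.7% of all tested probes. Their means lay between -0.23 (Col8a2 probe A_52_P302544) and 0.25 (Col27a1 probe A_52_P480088), and their lowest adjusted p was 0.0604 (Col4a3 probe A_52_P469744). Among them was the 1 collagen probe (1.19%, against 2.89% of all tested probes) whose mutant levels all exceeded those of wild type, Col27a1 A_52_P628870. It had log2 ratios of 0.11, 0.08, 0.13 and 0.13 and an adjusted p of 0.152.

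Probes of 1 gene often gave unlike ratios. Among 54 pairs of tested collagen probes of 1 gene, 12 differed (22.2%), against 17.4% of the 19175 such pairs on the array, and these 12 lay in 9 of the 29 genes with several tested probes. Without array 1 there were 5 differing pairs, without array 2 there were 0, without array 3 there were 8 and without array 4 there was 1. Of the 9 genes with a lower probe, 8 had further tested probes, and in 0 of the 8 was every probe lower. The 11 uncalled probes of these 8 genes had a positive mean in 8 cases. A lower and an uncalled probe differed from each other in 5 of the 8 genes, Col1a1, Col3a1, Col5a1, Col6a3 and Col12a1. These counts of genes were not made over the whole array. They set a called probe beside one that missed the threshold on the same arrays, which favours a difference. In Col1a2, Col3a1, Col5a1, Col6a3, Col8a1 and Col16a1 the uncalled probes were dimmer than the lower one. In Col1a2 the mean log2 levels were 6.70 and 12.27. The uncalled Col1a1 probe, at 8.72, lay between the lower ones, at 8.28 and 11.89. In Col12a1 A_52_P475805 matched the lower probe, at 7.60, and A_52_P378736 was dimmer, at 6.78. The latter and Col1a2 A_52_P424253 were well above background on 3 arrays in each channel. Col3a1 A_52_P8643, Col12a1 A_52_P475805 and Col16a1 A_52_P556933 were so on 3 arrays in mutants and 4 in wild type. The part of signal in these differences was not tested. With the probes of a gene averaged, 3 collagen genes were lower, against 4.34% of 26135 units, which are 20687 symbols and 5448 probes without a symbol: Col1a1 at -0.26 (adjusted p = 0.0417), Col6a1 at -0.44 (adjusted p = 0.0326) and Col8a1 at -0.24 (adjusted p = 0.0338). By the same average 0 collagen genes were higher, against 5.38% of these units.

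Probe target, base composition and signal were set beside the calls. The lower probes were all among the 75 tested probes with a RefSeq transcript as target. Of the 3 tested probes with a cDNA clone as target 2 were higher, and the 6 with an Ensembl transcript were not called. Calls by kind of target were not counted over the whole array, so these small counts have no background. GC content had a median of 44.2% in lower probes, 35.0% in higher probes and 45.0% in uncalled ones. The mean log2 level over both channels had a median of 10.1 in lower probes, 10.2 in higher probes and 8.33 in uncalled ones. The part of target, base composition or signal in the calls was not tested.

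**Figure D5:**
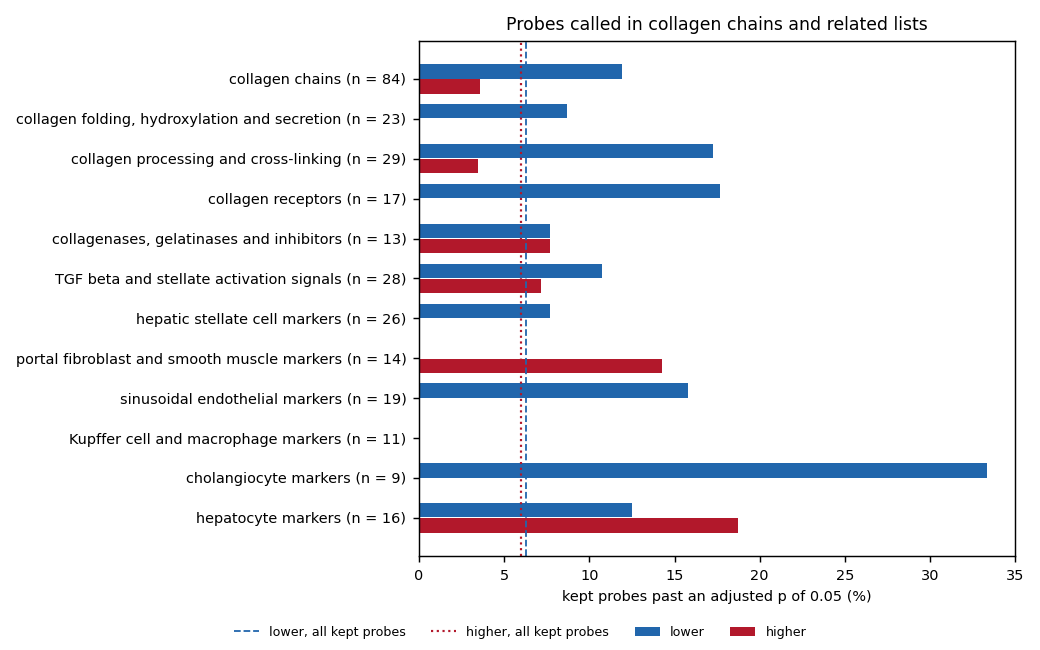
Share of tested probes called lower (blue) and higher (red) in the collagen chains and in 11 related gene lists, in percent, with n the number of tested probes of a list. The dashed and dotted lines give the shares over all 39080 tested probes, 6.27% lower and 5.97% higher, and cholangiocyte markers have the highest lower share at 33.3%.

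Genes that fold, export, trim, cross-link and bind collagen were read by the same test. Here too a value is that of the called probe, and uncalled probes of the gene are given after it. Of 23 probes for folding, hydroxylation and secretion 2 were lower (8.7%, against 6.27% of all tested probes) and 0 higher (against 5.97%). The median log2 ratio of this list was -0.13. Mia3, which loads procollagen into export carriers, was at -0.34 ± 0.06 (SD, n = 4; adjusted p = 0.0183), with uncalled probes at -0.12 and -0.17. Plod2, a lysyl hydroxylase with 1 probe, was at -0.25 ± 0.05 (adjusted p = 0.0304). The prolyl hydroxylase subunits were not called, with P4ha1 at 0.08 ± 0.09 and -0.13 ± 0.16 and P4hb at -0.04 ± 0.06. Of 29 probes for processing and cross-linking 5 were lower (17.2%) and 1 higher (3.45%), with a median of -0.05. Adamts2, which removes the amino-terminal propeptide, had -0.62, -0.42, -0.52 and -0.41 on arrays 1 to 4 (adjusted p = 0.0130), while its other 3 probes were uncalled at -0.10, -0.07 and 0.08. Sparc, a collagen-binding matrix protein, was lower on both probes, at -0.56 ± 0.16 (adjusted p = 0.0143) and -0.41 ± 0.09 (adjusted p = 0.0157). Adamts3, a related propeptidase, was higher at 0.19 ± 0.04 (adjusted p = 0.0460), with uncalled probes at 0.22 and -0.12.

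The 17 probes for collagen receptors had a median of -0.14. Of these, 3 were lower (17.6%, against 6.27% of all tested probes) and 0 higher (against 5.97%). They included Ddr2, a receptor kinase for fibrillar collagen, at -0.25 ± 0.06 (SD, n = 4; adjusted p = 0.0312), whose other probe was uncalled at 0.10. The integrin chain Itgb1 was at -0.25 ± 0.06 (adjusted p = 0.0313), with uncalled probes at -0.29 and 0.03. Of 13 probes for collagenases, gelatinases and their inhibitors 1 was lower, Timp3 at -0.43 ± 0.14 (adjusted p = 0.0185), and 1 was higher, Timp4 at 0.26 ± 0.10 (adjusted p = 0.0346). Both are metalloproteinase inhibitors, and each call made up 7.69% of the tested probes of the list. Of 28 probes for TGF beta and stellate activation signals 3 were lower (10.7%) and 2 higher (7.14%), with a median of -0.01. Smad4, the shared mediator of the TGF beta pathway, was at -0.32 ± 0.05 (adjusted p = 0.0187) on one probe and uncalled at 0.10 ± 0.13 (adjusted p = 0.315) on the other. Both higher probes belong to the growth factor gene Pdgfa, at 0.36 ± 0.11 (adjusted p = 0.0208) and 0.30 ± 0.15 (adjusted p = 0.0374).

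Markers of cell types that whole liver holds were read on the same arrays. The lower share was 7.69% for stellate cells and 0% for portal fibroblasts and smooth muscle, against 6.27% of all tested probes. The higher share was 0% and 14.3%, against 5.97%. For stellate cells 2 of 26 marker probes were lower and 0 higher, 1 probe each of Bmp5 at -0.44 ± 0.26 (SD, n = 4; adjusted p = 0.0353) and Ecm1 at -0.32 ± 0.21 (adjusted p = 0.0488). The uncalled probes were at 0.21 and -0.28 for Bmp5 and at 0.03 for Ecm1, and the list median was -0.08. Their summed level, the linear intensity added over the tested probes of the list, was 81718 to 90322 in mutants, against 93927 to 102824 in wild type, with no overlap. The called Ecm1 probe made up 35.2% to 40.6% of that sum in mutants and 39.3% to 47.6% in wild type. Without it the sums overlapped, at 50732 to 55363 in mutants and 51696 to 61482 in wild type. How often sums over other lists of probes separate was not computed, so a separation of sums has no background here. The markers Lrat, Des and Pdgfrb, of 14 genes in the list, were well above background in both groups and not called. Lrat was at 0.09 ± 0.56 and 0.18 ± 0.66, Des at -0.07 ± 0.08 and Pdgfrb at -0.17 ± 0.21. The absence of a call does not show an unchanged level. For portal fibroblasts and smooth muscle 0 of 14 probes were lower and 2 were higher, Thy1 at 0.27 ± 0.14 (adjusted p = 0.0448; uncalled probe at 0.14) and Eln at 0.19 ± 0.02 (adjusted p = 0.0464). Their sums overlapped, at 31434 to 35056 in mutants and 31149 to 34526 in wild type.

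For sinusoidal endothelium 3 of 19 probes were lower and 0 higher, among them Kdr at -0.24 ± 0.08 (SD, n = 4; adjusted p = 0.0364) and Clec4g at -0.35 ± 0.20 (adjusted p = 0.0394). The other Clec4g probes were uncalled at 0.05 and 0.17. The lower share of this list was 15.8%, against 6.27% of all tested probes. The summed level was 69634 to 75943 in mutants, against 79386 to 92919 in wild type, with no overlap. Without the called Clec4g probe, the brightest of the list, it was 50329 to 56498 in mutants and 56879 to 64311 in wild type. As for stellate cells, a separation of sums has no background share beside it in any list. For cholangiocytes 3 of 9 probes were lower, among them Spp1 at -0.63 ± 0.32 (adjusted p = 0.0251) and Sox9 at -0.62 ± 0.39 (adjusted p = 0.0371). The other Sox9 probes were uncalled at 0.02 and -0.25. The lower share of the cholangiocyte list was 33.3%, against 6.27% of all tested probes. The cholangiocyte sums were 13598 to 15714 in mutants, against 18434 to 23689 in wild type, and the Spp1 probe made up 75.9% to 83.6% of them in mutants and 82.0% to 87.0% in wild type. Without Spp1 the sums overlapped, at 2437 to 3337 in mutants and 2984 to 3397 in wild type. Kupffer cell and macrophage markers had 0 of 11 probes called, against 12.2% of all tested probes. Their sums overlapped, at 55623 to 76585 in mutants and 59295 to 95430 in wild type. Hepatocyte markers had 2 lower (12.5%, against 6.27% of all tested probes) and 3 higher (18.8%, against 5.97%) of 16 probes. Their sums overlapped, at 1.42e+06 to 1.60e+06 in mutants and 1.13e+06 to 1.46e+06 in wild type. Apob at -0.62 ± 0.21 (adjusted p = 0.0159) and Hnf4a at -0.25 ± 0.10 (adjusted p = 0.0370) were lower on 1 probe each, with 4 uncalled Apob probes between -0.35 and -0.04 and uncalled Hnf4a probes at -0.01 and -0.16. Alb at 0.83 ± 0.21 (adjusted p = 0.0106) and Tat at 0.53 ± 0.26 (adjusted p = 0.0262), with 1 probe each, were higher. The part of these cell types in the lower collagen probes was not tested.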

How the data were processed

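The 4 arrays had 2 colours, with the mutant animal in red (Cy5) and the wild-type animal in green (Cy3). Spots were scanned with Agilent Feature Extraction 10.5.1.1, per the file headers, and the annotation used mm9. The authors deposited a series table with a log2 ratio per array, p-values, and score columns such as the moderated statistic. The submitters' processing notes name limma, with no version. The deposited scanner files hold median intensity and background intensity per channel, and a log10 ratio of processed signals. The deposited log2 ratios matched background subtraction with loess on each array (r across probes of at least 0.9999).

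The deposited log2 ratios were averaged over the spots of a probe and fitted over 39080 probes with lmFit and eBayes in limma 3.58.1 (R 4.3.3), with Benjamini-Hochberg adjustment. Differences between probes of 1 symbol were fitted the same way over 19175 pairs, leaving out symbols with more than 10 probes. Levels per channel were normalized by normexp (offset 50), loess and then Aquantile. Dye bias can remain in them, so their differences need not equal the ratios. Per-array values are given for called probes, other probes of their genes, and the chains of normal liver. Of related lists, up to 2 called members per direction are named. A gene that this rule selects is not reported here, and none took its place. P4ha1, P4hb, Lrat, Des and Pdgfrb fall outside that rule and were added with their values known. Acta2 and Pdgfrb stand in a signal list and in a marker list. Summed levels of lists without their brightest probe were added after seeing the data. The fit was tested on simulated data. Members, lists and rules were chosen with earlier results of these data known.

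The same array pairs a mutant and a wild-type animal, per the labels. Deviations from the group means of the channels correlated at 0.943, 0.695, 0.676 and 0.726 on arrays 1 to 4. Both channels share the array, so these correlations cannot separate the animals from the array. The ratios keep the pairing by array that the labels give. The number of arrays limits precision.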

Additional observations from a re-analysis of the deposited data

Results flagged for a closer look

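In 5 of 85 values examined, the ratio of 1 array lay so far from the other 3 that its gap, set against the whole range, passed Dixon's 95% critical value, which chance does in about 1 of 20 groups. They were a log2 ratio of 0.46 on array 4 for Col2a1 probe A_52_P216436, -0.53 on array 1 for Col8a2 probe A_52_P302544, -0.0844 on array 1 for Col25a1 probe A_51_P333929, 0.18 on array 2 for Col4a3 probe A_52_P469744 and -0.0870 on array 3 for Col6a2 probe A_52_P362757. None of the 5 probes was called.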

How the results depend on the processing

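The 13 collagen calls were all kept under normexp and loess on the scanner medians, median centring and array weights. They were also kept under a variance trend with robust moderation and after the removal of outlier spots. All 12 that could be tested were kept under the stricter filter, which left out Col4a4 probe A_52_P424594. Agilent's processed signals gave 1194 called probes on the whole array in place of 4782, 5 lower and 0 higher collagen probes in place of 10 and 3, and 5 differing pairs in place of 12. With no replicate block, that is without the pairing of animals on an array, 26 probes were called on the whole array and 0 collagen probes lower or higher. An adjusted p under 0.01 left 66 probes in all, 0 lower, 0 higher and 0 pairs, and a 1.5-fold minimum left 319 in all, 0 lower and 0 higher. Leaving out each replicate in turn gave 12 to 1577 probes in all, 0 to 9 lower and 0 to 1 higher collagen probes, 0 to 8 pairs and medians of 0.0020 to 0.019. Higher collagen probes numbered 5 under median centring, 1 without a filter, 0 when probes were averaged per gene and 1 with the brightest probe, while averaging per gene gave 3 lower. The collagen median was -0.0025 under median centring. Col18a1 probe A_52_P261846 changed sign there, at 0.27 with an adjusted p of 0.0244 against -0.08. The cause was not tested.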
